A study of Rattus norvegicus with 12 samples.

Results

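The cell cycle genes of rat left atrium (LA) and left ventricle (LV) were followed across 12 Affymetrix arrays. The set holds 44 named genes: 28 genes of DNA replication and mitosis that mark proliferating cells, 11 cyclins and cyclin-dependent kinases (CDKs), and 5 CDK inhibitors. A gene was included when a probe set, the group of probes that reads 1 transcript, carried its symbol and no other in the platform annotation. This found 42 of the 44 genes on 59 probe sets, out of 31042 probe sets that are not controls and 14217 genes. Rrm2 and Tpx2 had no such probe set. The rule used gene symbols and no measured value. The comparison is between 4 groups of 3 arrays each: LA after shunt, LA after sham operation, LV after shunt and LV after sham operation. All animals were male Sprague-Dawley rats with no genetic change named, killed 28 days after surgery, and their ages were not given. The shunt joins the aorta to the vena cava and loads the heart with extra blood volume. For an array, 2 pieces of tissue were pooled, from the appendage of the atrium or the free wall of the ventricle, so single animals cannot be told apart.

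Cells copy their DNA in S phase and divide in mitosis, and each step is driven by CDKs bound to cyclins. D-type cyclins with Cdk4 or Cdk6, and then cyclin E with Cdk2, move a cell out of G1. Cdk1 with cyclin A or cyclin B drives mitosis. The Cip/Kip inhibitors (Cdkn1a, Cdkn1b, Cdkn1c) bind cyclin-CDK complexes, and the INK4 inhibitors (Cdkn2b, Cdkn2c) bind Cdk4 and Cdk6. In the adult rat heart nearly all cardiac myocytes have left the cycle, while fibroblasts, endothelial cells and leukocytes can still divide.

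The values were log2 intensities. Per array they ranged between 2.05 and 14.29, with medians of 4.54 to 4.59. Precision is set by having only 3 arrays in a group. The labelled tissues were checked against their markers. In sham hearts all 5 atrial myocyte markers were higher in LA and all 4 ventricular myocyte markers were lower in LA (limma, adjusted p under the 0.05 threshold). Of the 12 arrays, LA shunt array 3 lay furthest from its group, with a root mean square deviation of 0.181 log2 units, against 0.0947 to 0.106 in the LA sham arrays. It also had the largest gap between 3′ and 5′ probes for hexokinase, a sign of shortened RNA, at 1.44 against 0.80 and 0.94 on the other LA shunt arrays. That difference was 1.01 to 1.10 in LA sham, 0.82 to 1.23 in LV shunt and 0.84 to 1.02 in LV sham.

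Replication and mitosis genes are known to be switched on at different times through different promoter elements, and 5 promoters that carry them, or lack them, are shown because their genes recur in the results. The stretches run from 250 bases before to 50 bases after the start of the gene (RefSeq, GRCr8), and capitals mark the motifs searched on both strands: TTTGAA, the cell cycle homology region (CHR), CCAAT, the CCAAT box, and TTTGGCGC, TTTCCCGC, TTTCGCGC or TTTGCCGC, the E2F element. A CHR found on the other strand reads TTCAAA, and the reverse of CCAAT is printed as ATTGG. The E2F matches can overlap each other. The Mcm2 promoter is at chr4:122918045-122918344, minus strand, Mcm5 at chr19:13488563-13488862, plus strand, Cdk1 at chr20:19265043-19265342, plus strand, Cdkn1a at chr20:7150682-7150981, plus strand, and Cdkn1b at chr4:169491254-169491553, plus strand.
Mcm2: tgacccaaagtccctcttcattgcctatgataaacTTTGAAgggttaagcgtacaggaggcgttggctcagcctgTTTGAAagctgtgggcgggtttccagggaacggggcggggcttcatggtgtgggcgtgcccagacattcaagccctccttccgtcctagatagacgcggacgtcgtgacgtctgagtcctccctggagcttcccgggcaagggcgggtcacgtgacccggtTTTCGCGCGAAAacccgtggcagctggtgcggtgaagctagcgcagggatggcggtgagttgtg
Mcm5: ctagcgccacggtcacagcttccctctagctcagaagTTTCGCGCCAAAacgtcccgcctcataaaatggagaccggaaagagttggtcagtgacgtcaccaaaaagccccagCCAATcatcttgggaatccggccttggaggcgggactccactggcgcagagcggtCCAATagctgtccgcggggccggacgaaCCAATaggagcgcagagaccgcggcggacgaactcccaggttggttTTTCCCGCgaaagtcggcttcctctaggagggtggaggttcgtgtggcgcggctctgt
Cdk1: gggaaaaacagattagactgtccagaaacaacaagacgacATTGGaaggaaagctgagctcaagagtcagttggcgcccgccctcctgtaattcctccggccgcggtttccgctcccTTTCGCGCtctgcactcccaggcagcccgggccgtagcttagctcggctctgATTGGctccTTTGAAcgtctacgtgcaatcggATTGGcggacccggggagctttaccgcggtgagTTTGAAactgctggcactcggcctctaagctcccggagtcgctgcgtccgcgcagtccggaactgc
Cdkn1a: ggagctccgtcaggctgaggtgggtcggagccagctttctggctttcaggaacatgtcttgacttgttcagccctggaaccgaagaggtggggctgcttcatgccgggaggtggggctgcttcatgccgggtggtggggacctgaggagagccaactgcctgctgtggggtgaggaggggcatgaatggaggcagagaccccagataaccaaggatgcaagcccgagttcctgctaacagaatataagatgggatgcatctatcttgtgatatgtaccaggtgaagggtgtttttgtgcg
Cdkn1b: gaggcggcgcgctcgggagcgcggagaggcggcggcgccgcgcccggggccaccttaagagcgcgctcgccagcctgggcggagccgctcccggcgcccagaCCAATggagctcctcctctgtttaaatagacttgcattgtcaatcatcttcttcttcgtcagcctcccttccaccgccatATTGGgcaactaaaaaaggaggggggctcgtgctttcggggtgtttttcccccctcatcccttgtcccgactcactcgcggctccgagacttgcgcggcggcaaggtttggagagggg

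A promoter was listed for 32 of the 42 genes. Of the 9 replication genes with one, 6 held an E2F element and 1 held a CHR. Of the 12 mitosis genes, 0 held an E2F element and 9 held a CHR. Over all 27457 promoters of the same length, 2.25% held an E2F element, 18.1% a CHR and 37.7% a CCAAT box. The Cdk1 promoter held all 3 motifs. Of the 4 inhibitor promoters, 1 held a CHR, 1 a CCAAT box and 0 an E2F element, and that of Cdkn1a held none of the letters searched. Matches are runs of letters, not proven binding sites.

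The shunt comparison asks whether volume load altered these genes in either chamber. Of the 42 genes, 34 had a mean log2 value of at least 4.01, the 40th percentile, and were tested. The other 8 were 6 mitosis genes (Mki67, Aurka, Aurkb, Bub1, Bub1b and Birc5), Ccna2 and Cdk6. In LA 0 of 34 members passed the limma test, where 1.40% of all genes tested did. In LV 0 of 34 passed, against 0.113% of all genes, and for the difference between the shunt effects in LA and LV 0 of 34 passed, against 0%. At an unadjusted p under 0.05, 1 member was higher and 4 were lower in LA, where 6.98% of all genes tested were higher and 8.89% lower. In LV 0 were higher and 2 were lower, against 7.60% and 7.04% of all genes. The lowest adjusted p of a member was 0.231 in LA and 0.231 in LV, each member being read by its probe set of highest mean. Other probe sets went lower, among them 1371643_at of Ccnd1 in LA (limma, adjusted p 0.0403) and 1387391_at of Cdkn1a in LV (0.106), described below. P-values measure the spread between pools, which the labels call biological replicates.

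The 3 classes had medians close to 0 in both chambers. In LA the median shunt minus sham difference was -0.07 over the 26 proliferation genes, -0.01 over the 11 cyclins and CDKs and -0.01 over the 5 inhibitors. In LV these medians were 0.02, 0.01 and 0.07, in the same order, and the median over all genes was 0.00 in each chamber. The 95% intervals lay within 1 log2 unit (a doubling or a halving) of 0 for 33 of the 34 members in each chamber. The exception was Ccnd1 in LA and Ccnd2 in LV. Within 0.5 log2 units of 0 lay 22 intervals in LA and 24 in LV. The intervals of the other members reached past 0.5, so a change of that size was not excluded for them. In tissue RNA, fewer cells of a type and less RNA per cell cannot be told apart.

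**Figure D1:**
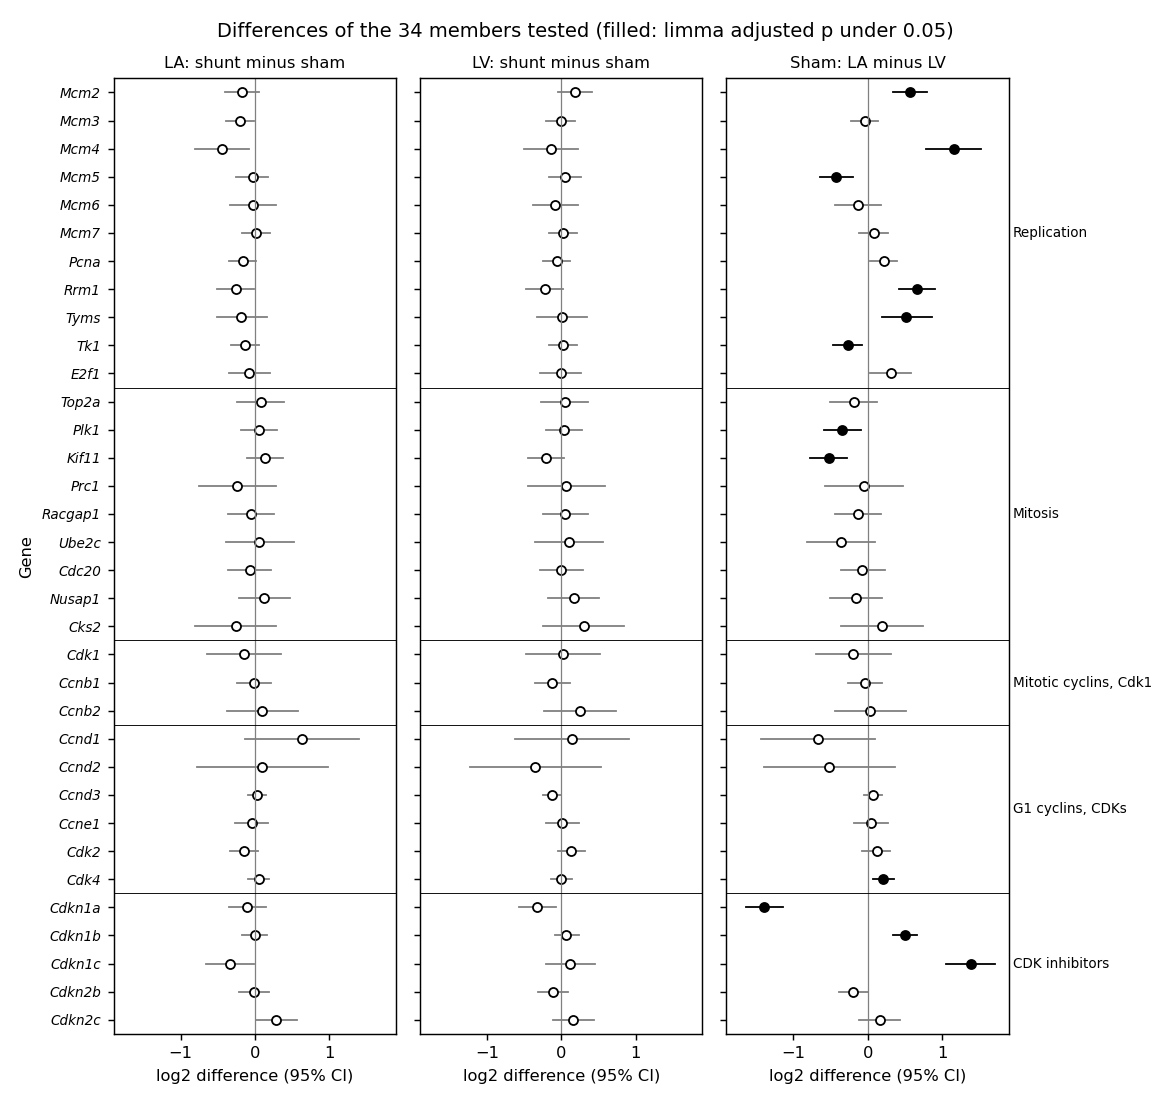
Log2 differences of the 34 members tested with 95% intervals of the limma fit: shunt minus sham in LA, shunt minus sham in LV, and LA minus LV in sham hearts, with genes grouped by role. Filled points passed the adjusted p threshold of 0.05: 0 in either shunt panel and 12 in the chamber panel.

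Of the 5 roles, the replication genes had the lowest median in LA. Of these 11 genes, 10 had a mean below sham, where 5614 of 10606 genes tested did. The median difference of the 11 genes was -0.16. The groups did not overlap for 3 of them, Mcm2, Mcm3 and Rrm1, all lower after shunt, where 12.5% of all genes tested did the same. In LA 0 passed the limma test. The same counts in LV were 6 of 11 below sham, a median of -0.01 and 0 without overlap. LA shunt array 3, with the largest hexokinase difference, was the lowest of its group for 9 of the 11 genes. Centred means of the 11 genes were 0.14, 0.02 and -0.12 on the LA shunt arrays and 0.07, 0.25 and 0.17 on the LA sham arrays. Of 29 other measured replication genes (among them origin licensing factors, polymerases and the clamp loader), 22 had a mean below sham in LA, with a median of -0.07, and 0 of 21 tested passed.

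Mcm4, a subunit of the MCM helicase that unwinds DNA at the fork, had log2 values of 5.73, 5.39 and 5.23 in LA shunt, against 5.49 on LA sham array 1 and a high of 6.19 on LA sham array 2, with array 3 between them. Shunt array 1 lay inside the sham range, so the groups overlapped. The difference was -0.44 ± 0.17 (SE, limma, adjusted p 0.231). Mcm3, another MCM subunit, had 4.44, 4.37 and 4.26 in LA shunt and 4.48, 4.67 and 4.51 in LA sham, with a difference of -0.20 ± 0.09 (adjusted p 0.296).

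Rrm1, the large subunit of the ribonucleotide reductase that makes DNA precursors, had 7.17, 7.14 and 6.99 in LA shunt and 7.35, 7.38 and 7.36 in LA sham. The sham arrays lay close together and above every shunt array. The difference was -0.26 ± 0.11 (SE, limma, adjusted p 0.300) in LA and -0.22 ± 0.11 (adjusted p 0.385) in LV. Mcm2 had 5.63, 5.62 and 5.62 in LA shunt and 5.67, 5.94 and 5.78 in LA sham, a difference of -0.17 ± 0.10 (adjusted p 0.473), while its difference in LV was 0.19 ± 0.10 (adjusted p 0.421). The gap between these 2 effects was -0.36 ± 0.15, which did not pass (adjusted p 0.700). Pcna, the sliding clamp of the polymerases, differed by -0.16 in LA, and Mcm7 by 0.02.

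Among the 15 mitosis genes, 9 passed the filter and 0 of these passed the test in either chamber. Mki67, a protein of the chromosome surface used as a marker of cycling cells, was below the filter. Its values were 4.29, 3.62 and 3.53 in LA shunt, against 3.70, 3.78 and 3.82 in LA sham. In LV they were 4.17, 4.42 and 4.08 after shunt, against 4.13, 4.13 and 3.86 after sham. LA shunt array 1 was the highest of the atrial values and the other shunt arrays were the lowest. Top2a, the topoisomerase that untangles sister chromatids, had 5.28, 4.79 and 4.64 in LA shunt and 4.79, 4.79 and 4.90 in LA sham, with a difference of 0.08 ± 0.14 (limma, adjusted p 0.855). In LV its difference was 0.05 ± 0.14 (adjusted p 0.910). Over the 9 tested, differences ran between -0.26 (Cks2) and 0.14 (Kif11) in LA and between -0.21 (Kif11) and 0.30 (Cks2) in LV. A second Kif11 probe set, 1390891_at, lay below the filter and differed by -0.09 in LA and 0.26 in LV.

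Aurkb, the kinase of the chromosomal passenger complex that corrects spindle attachments, stood apart from the other mitosis genes. It lay below the filter, with a mean of 3.97, and was chosen for description after its values were seen. Its values were 4.06, 3.76 and 3.82 in LA shunt and 5.09, 4.97 and 5.44 in LA sham. In LV they were 3.43, 3.54 and 3.18 after shunt and 3.77, 3.35 and 3.28 after sham. The LA sham arrays lay above every other array, and the LV groups overlapped.

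Without the filter, Aurkb was lower after shunt in LA by a log2 difference of -1.29 ± 0.15 (limma, adjusted p 0.00283), a test read after the values were seen. The LA shunt values and all LV values lie near or below the filter's level, so the size of the difference is not well measured and no fold is given. In LV the difference was -0.08 ± 0.15 (adjusted p 0.874). The gap between the chambers' effects was -1.20 ± 0.22 and did not pass (unadjusted p 0.000102, adjusted p 0.261). The atrial call held in 12 of 12 fits that left out 1 array, with differences of -1.39 to -1.15 and adjusted p of 0.00224 to 0.0213. It also held with the hexokinase difference as a covariate (adjusted p 0.00100). Aurkb was chosen after these same values were seen, so these fits are no independent support. Its partner Birc5 had 3.29, 3.10 and 3.13 in LA shunt and 3.28, 3.01 and 3.20 in LA sham, and Aurka, the related kinase of the spindle poles, had 4.03, 3.87 and 3.55 in LA shunt and 3.73, 3.93 and 3.43 in LA sham. Both overlapped between the groups. In the same comparison 2 of 4 ventricular myocyte markers and 1 of 2 Schwann cell markers tested were higher, and 0 markers of the other 10 cell type lists passed. Their part in the Aurkb difference was not tested. Aurkb was read by 1 probe set.

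The mitotic cyclins and Cdk1 showed no difference past the test. Cdk1, the kinase that starts mitosis, had 4.75, 3.83 and 3.70 in LA shunt and 4.07, 4.15 and 4.49 in LA sham, a difference of -0.15 ± 0.23 (limma, adjusted p 0.819). Ccnb2, a B-type cyclin, differed by 0.10 ± 0.22 in LA (adjusted p 0.875) and 0.25 ± 0.22 in LV (adjusted p 0.633). For Ccnb1 the differences were -0.01 ± 0.11 in LA and -0.12 ± 0.11 in LV.

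**Figure D2:**
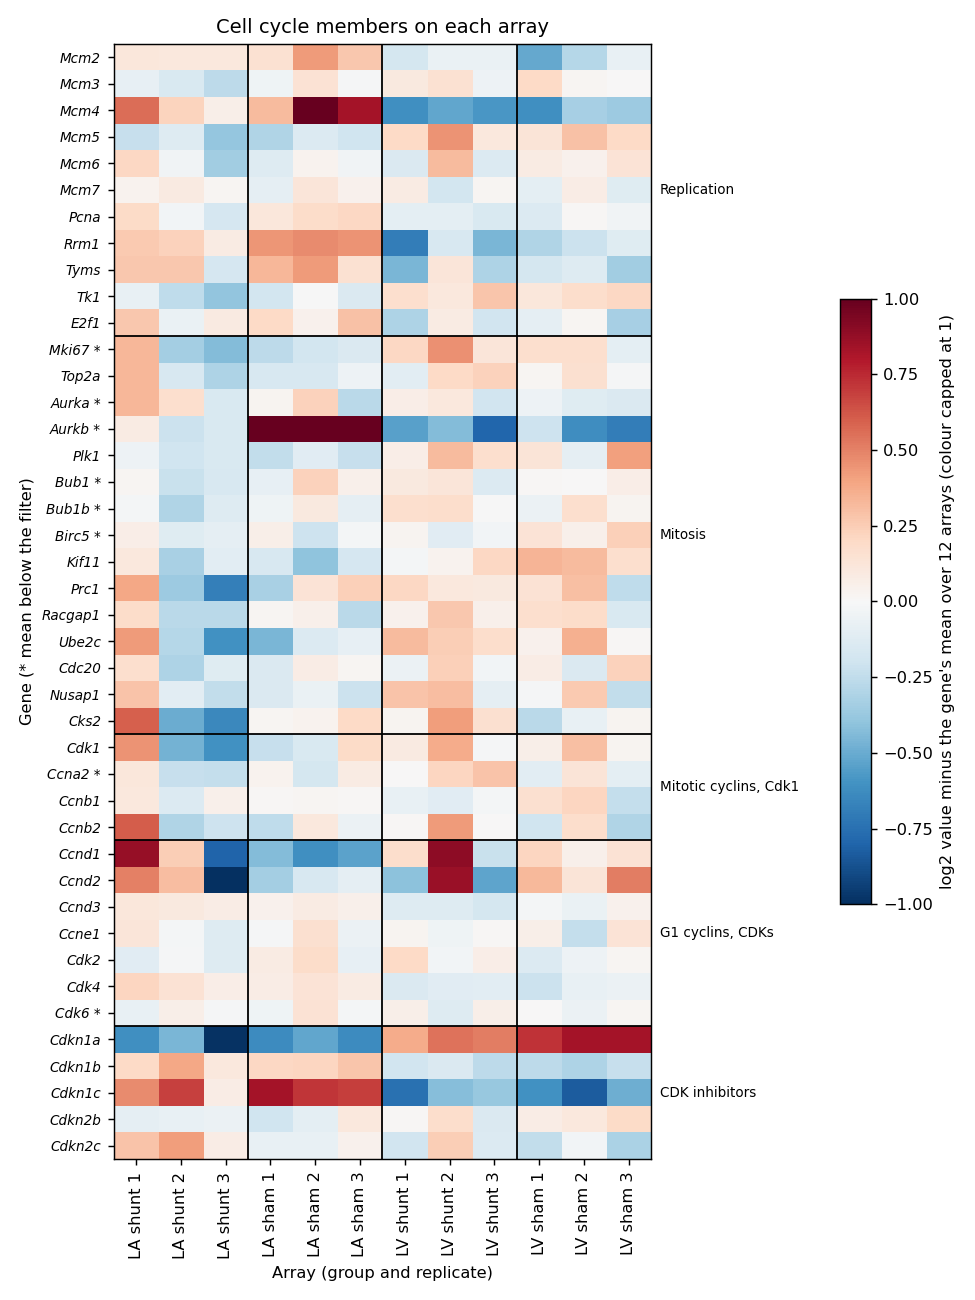
Each of the 42 measured genes on each of the 12 arrays, as its log2 value minus its mean over the arrays, with colour capped at 1. Aurkb is high on the 3 LA sham arrays alone, and Cdkn1a and Cdkn1c separate the chambers. LA shunt array 1 is the highest of the LA shunt arrays across the mitosis genes.

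The 3 LA shunt arrays differed from each other in their mitosis genes. LA shunt array 1 held the highest of the 3 shunt values for 19 of the 19 mitosis genes, mitotic cyclins and Cdk1. Over all genes that array was the highest of the 3 for 31.8%, and for 35.5% of genes in the same range of mean levels. Averaged over the 19 genes, the values centred on each gene's mean were 0.24, -0.25 and -0.28 on the 3 LA shunt arrays and -0.06, 0.02 and 0.03 on the LA sham arrays. Both sides of the sham range were therefore filled by shunt arrays. Cks2, a small subunit of mitotic CDKs, had 5.59, 4.50 and 4.35 in LA shunt and 5.01, 5.03 and 5.19 in LA sham, a difference of -0.26 ± 0.25 (limma, adjusted p 0.674). Without LA shunt array 1, which held the highest Cks2 value, the Cks2 difference was -0.65 (adjusted p 0.0535).

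The same array stood out among genes outside the set. It was the highest LA shunt array for 30 of 45 other mitosis genes (66.7%) and for 18 of 29 other replication genes (62.1%). In LV, shunt array 2 was the highest of its group for 12 of the 19 genes (63.2%), against 33.6% of all genes. Its centred mean was 0.18, against 0.04 and 0.01 on the other LV shunt arrays. LA shunt array 1 and LV shunt array 2 had the lowest hexokinase difference of their groups, 0.80 in LA and 0.82 in LV. Among the sham arrays, LA sham 2 (9 of 19) and LV sham 2 (10 of 19) were highest of their groups most often. They had the highest hexokinase differences of their groups, 1.10 and 1.02. The macrophage marker list, with 7 of 8 markers above the filter, had centred means of 0.24, 0.21 and -0.38 on the LA shunt arrays and 0.06, 0.34 and 0.11 on the LV shunt arrays. The lymphocyte list, with 2 of 8 markers above the filter, had -0.10, 0.05 and -0.11 on the LA shunt arrays and 0.11, 0.18 and 0.08 on the LV shunt arrays. The neutrophil and mast cell list had -0.20, -0.15 and -0.20 in LA shunt and 0.22, -0.09 and 0.45 in LV shunt. The part of RNA quality or of leukocytes in this pattern was not tested.

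**Figure D3:**
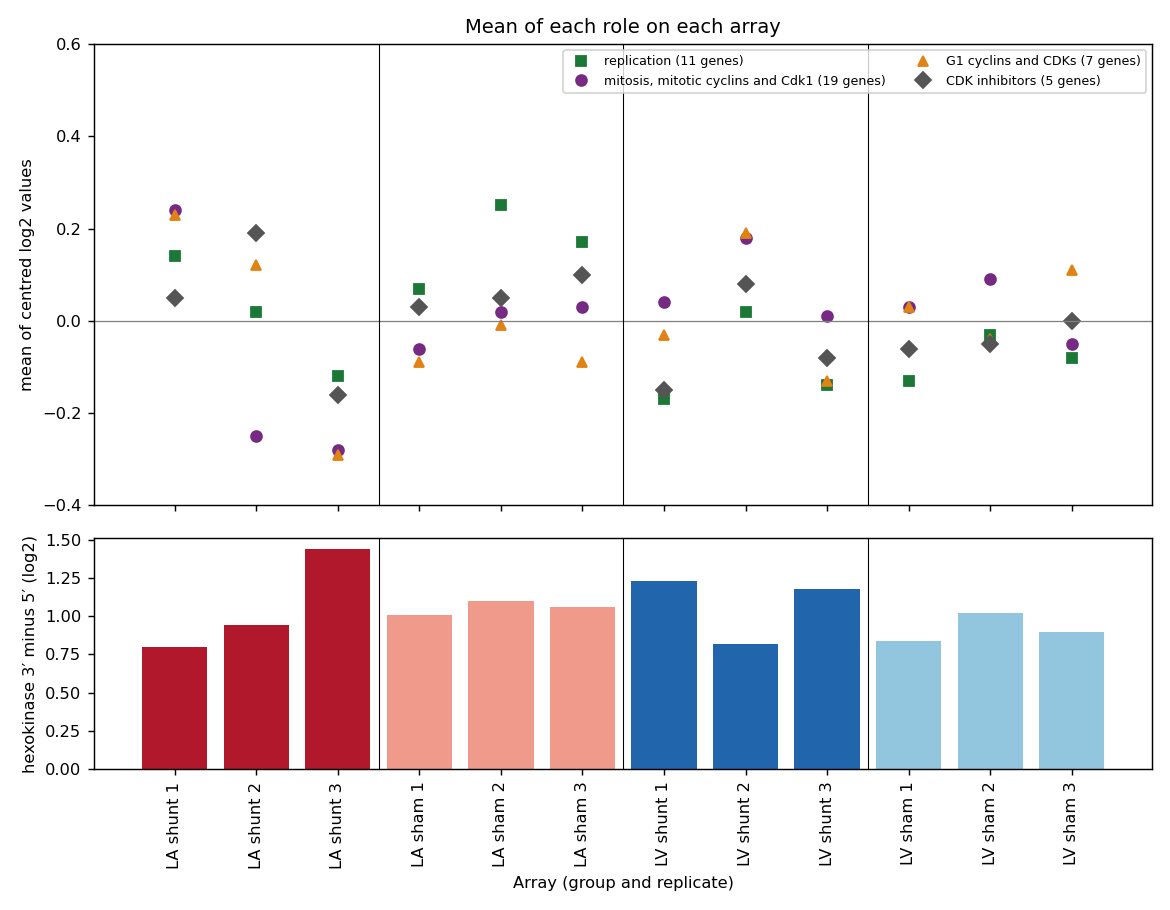
Top: mean of the centred log2 values of replication genes, mitosis genes with mitotic cyclins and Cdk1, G1 cyclins and CDKs, and CDK inhibitors on each array. Bottom: hexokinase log2 value at its 3′ probes minus that at its 5′ probes on the same arrays. The mitosis genes are at 0.24 on LA shunt array 1 and at -0.25 and -0.28 on arrays 2 and 3.

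The D-type cyclins, which answer to growth signals and open the cycle with Cdk4 and Cdk6, include the members of widest spread after shunt, Ccnd1 and Ccnd2. Ccnd1 was read by 3 probe sets. The 1 of highest mean, 1383075_at, had 8.91, 8.29 and 7.24 in LA shunt and 7.61, 7.43 and 7.51 in LA sham, so shunt array 3 lay below every sham array and the others lay above. The difference was 0.63 ± 0.35 (limma, adjusted p 0.425), and with the hexokinase difference as a covariate it was 0.64 (adjusted p 0.0195). It was 0.25 without LA shunt array 1 (adjusted p 0.762) and 1.09 without LA shunt array 3 (adjusted p 0.0547).

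The probe set 1371643_at of Ccnd1 was the only 1 of 42 member probe sets tested to pass in a shunt comparison, where 1.30% of all probe sets did in LA. It had 8.27, 8.20 and 7.91 in LA shunt and 7.66, 7.44 and 7.56 in LA sham. The groups did not overlap, as for 9.26% of all genes tested in that direction. The difference was 0.58 ± 0.12, a 1.49-fold rise (limma, adjusted p 0.0403). The call held in 3 of 12 fits that left out 1 array, those without LA shunt 3, LV shunt 2 or LV shunt 3. In the other 9 the difference was 0.51 to 0.63 and the adjusted p 0.0529 to 0.164. It was also lost when only the atrial arrays were fitted (adjusted p 0.117) and with a replicate block (adjusted p 0.0552). The third probe set, 1371150_at, had 7.46, 7.42 and 6.75 in LA shunt and 6.59, 6.73 and 6.68 in LA sham, a difference of 0.54 ± 0.19 (adjusted p 0.187). All 3 probe sets had a higher mean after shunt in LA, and in LV their differences were 0.15, 0.17 and 0.18.

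Ccnd2 had 9.64, 9.45 and 8.03 in LA shunt and 8.80, 8.98 and 9.05 in LA sham, a difference of 0.10 ± 0.41 (limma, adjusted p 0.939). In LV it had 8.73, 10.00 and 8.61 after shunt and 9.46, 9.27 and 9.65 after sham, a difference of -0.35 ± 0.41 (adjusted p 0.735). In both chambers the shunt arrays lay on both sides of the sham arrays. The arrays with low Ccnd2, LA shunt 3 and LV shunt 1 and 3, were those with the largest hexokinase differences, 1.44, 1.23 and 1.18, and the part of RNA quality in this spread was not tested. Ccnd3 varied little, with 8.59, 8.57 and 8.55 in LA shunt, 8.52, 8.56 and 8.53 in LA sham, 8.35, 8.35 and 8.30 in LV shunt and 8.46, 8.41 and 8.52 in LV sham. Its LV shunt arrays lay below its LV sham arrays, as for 10.5% of all genes tested, with a difference of -0.13 ± 0.05 (adjusted p 0.313). The other G1 members tested differed little in LA, Ccne1 by -0.04, Cdk2 by -0.14 and Cdk4 by 0.05, and in LV by 0.01, 0.13 and -0.00.

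**Figure D4:**
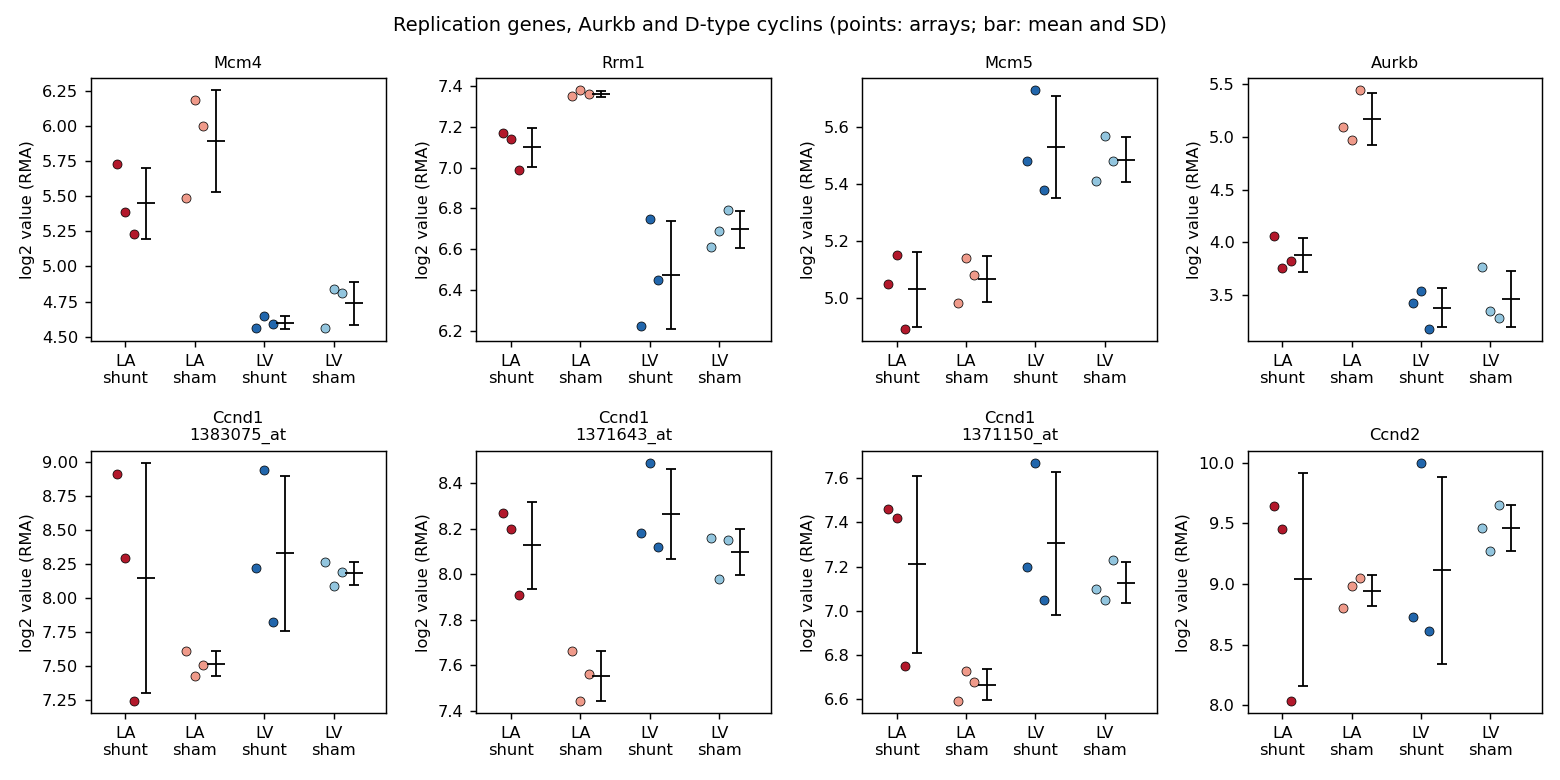
Log2 values of Mcm4, Rrm1, Mcm5, Aurkb, the 3 probe sets of Ccnd1, and Ccnd2 by group (points are arrays, bars the mean and SD of 3 arrays, and each panel has its own axis). Aurkb is at 3.76 to 4.06 in LA shunt and 4.97 to 5.44 in LA sham, and Ccnd2 spans 8.03 to 9.64 in LA shunt against 8.80 to 9.05 in LA sham.

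Among the CDK inhibitors, 0 of 5 passed in either shunt comparison. Cdkn1a, a target of p53 that halts cells in G1, had the lowest p in LV. Its probe set of highest mean had 7.56, 7.73 and 7.70 in LV shunt and 7.91, 8.02 and 8.02 in LV sham, and 1387391_at had 5.15, 5.57 and 5.15 in LV shunt and 5.87, 5.97 and 5.91 in LV sham. On both, every shunt array lay below every sham array, as for 10.5% of all genes tested. The differences were -0.32 ± 0.11 (limma, adjusted p 0.231) and -0.63 ± 0.15 (adjusted p 0.106). The second passed with array weights (adjusted p 0.0344), with the hexokinase covariate (adjusted p 0.0374) and without LA shunt array 3 (adjusted p 0.0421). In LA the differences of these probe sets were -0.10 ± 0.11 and -0.03 ± 0.15.

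Cdkn1c, an imprinted inhibitor that is high in cells leaving the cycle during development, had 6.25, 6.46 and 5.85 in LA shunt and 6.61, 6.49 and 6.47 in LA sham. The groups did not overlap, as for 12.5% of all genes tested in that direction, with a difference of -0.34 ± 0.15 (limma, adjusted p 0.311). In LV its difference was 0.12 ± 0.15 (adjusted p 0.743). Cdkn2c, an INK4 inhibitor, had 5.96, 6.09 and 5.75 in LA shunt and 5.60, 5.60 and 5.72 in LA sham, a difference of 0.29 ± 0.13 (adjusted p 0.293). On this probe set the groups did not overlap, as for 9.26% of all genes tested in that direction, while its second probe set differed by -0.04. Cdkn1b differed by -0.00 ± 0.08 in LA and 0.07 ± 0.08 in LV, and Cdkn2b by -0.01 and -0.11.

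The chambers differed far more than the operations. In sham hearts 12 of 34 members passed the limma test between LA and LV, 7 higher and 5 lower in LA, where 50.2% of all genes tested passed (27.6% higher, 22.6% lower). The members were thus called no more often than genes in general. By role these were 6 of 11 replication genes, 2 of 9 mitosis genes, 0 of 3 mitotic cyclins with Cdk1, 1 of 6 G1 cyclins and CDKs, and 3 of 5 inhibitors. The median LA minus LV difference was -0.05 over the proliferation genes, 0.03 over the cyclins and CDKs and 0.16 over the inhibitors, against -0.03 over all genes. The inhibitors' median was -0.10 when a gene's probe sets were averaged.

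Replication genes went both ways. Mcm4 had 5.49 to 6.19 in LA sham and 4.56, 4.84 and 4.81 in LV sham, higher in LA by 1.16 ± 0.17 or 2.23-fold (limma, adjusted p 0.000146). Rrm1 had 7.35, 7.38 and 7.36 in LA sham and 6.61, 6.69 and 6.79 in LV sham, higher in LA by 0.66 ± 0.11 (adjusted p 0.000503). In sham hearts both were above every LV array on all LA arrays, as for 3684 of 10606 genes tested. Mcm2 was higher by 0.57 ± 0.10 (adjusted p 0.000819), and Tyms, the thymidylate synthase, by 0.52 ± 0.15 (adjusted p 0.0154).

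Mcm5, a subunit of the same helicase as Mcm4, went the other way. It had 4.98, 5.14 and 5.08 in LA sham and 5.41, 5.57 and 5.48 in LV sham, lower in LA with a difference of -0.42 ± 0.10 (limma, adjusted p 0.00452). The Mcm2 and Mcm5 promoters printed above both hold E2F elements, while only that of Mcm2 holds a CHR and only that of Mcm5 a CCAAT box. The part of these motifs in the chamber differences was not tested. Tk1, the thymidine kinase of the salvage pathway, was lower in LA on both probe sets tested, with differences of -0.27 ± 0.09 (adjusted p 0.0220) and -0.50 ± 0.10 (adjusted p 0.00141). The remaining MCM subunits Mcm3, Mcm6 and Mcm7 differed by -0.04, -0.13 and 0.08, and did not pass. Of 21 other replication genes tested, 9 were higher and 2 lower in LA, against 27.6% and 22.6% of all genes tested. They include Fen1, the flap endonuclease, at 0.84 ± 0.10 (adjusted p 2.41e-05), Rfc3 of the clamp loader at 0.61 ± 0.08 and Rpa2 of the single-strand binding complex at 0.66 ± 0.09, while Pola2 of the primase complex was lower at -0.68 ± 0.11.

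Of the 9 mitosis genes tested, the 2 that passed were lower in LA, where 22.6% of all genes tested were called lower. Kif11, the kinesin that pushes spindle poles apart, had 3.93, 3.69 and 3.92 in LA sham and 4.43, 4.41 and 4.26 in LV sham, a difference of -0.52 ± 0.11 (limma, adjusted p 0.00236). Its second probe set, 1390891_at, differed by -0.13 and lay below the filter. Plk1, a kinase of mitotic entry, had 4.34, 4.47 and 4.35 in LA sham and 4.71, 4.49 and 4.99 in LV sham, a difference of -0.34 ± 0.11 (adjusted p 0.0272). Of 20 other mitosis genes tested, 0 were higher and 2 lower in LA, against 27.6% and 22.6% of all genes tested. The 2 were Kif2c at -0.37 ± 0.09 and Troap at -0.30 ± 0.09. Aurkb, which lay below the filter, was higher in LA by 1.70 ± 0.15 in the fit without the filter (adjusted p 2.97e-06). This held in 12 of 12 fits without 1 array. Because Aurkb was chosen after the same LA sham values were seen, this test and these fits are no independent support. All its LV values lie below the filter's level, so the size is not well measured. After shunt the difference was 0.50 ± 0.15 (adjusted p 0.0288), called in 9 of 12 fits without 1 array.

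Of the G1 kinases, Cdk4 was higher in LA by 0.21 ± 0.06 (limma, adjusted p 0.0180), with 8.29, 8.35 and 8.30 in LA sham and at most 8.16 in LV sham. Ccnd1 was lower in LA on 1371643_at, with 7.66, 7.44 and 7.56 in LA sham and 8.16, 7.98 and 8.15 in LV sham and a difference of -0.54 ± 0.12 (adjusted p 0.00257). Its other probe sets differed by -0.67 and -0.46 and did not pass. Of 21 other G1 regulators tested, 6 were higher and 0 lower in LA, where 27.6% of all genes tested were higher and 22.6% lower. The 6 include E2f2, an E2F factor, at 0.70 ± 0.13 (adjusted p 0.000889) and Cdk7, the kinase that activates other CDKs, at 0.40 ± 0.10 (adjusted p 0.00757).

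The calls of 4 members in sham hearts, Tyms, Cdk4, Tk1 and Plk1, were lost when 1 array was left out. For Tyms these arrays were LA sham 2 (adjusted p 0.0586) and LV sham 3 (0.0578). For Cdk4 they were LA sham 2 (0.0605) and LV sham 1 (0.0793). For Tk1 they were LA sham 1 and 3 and LV sham 2 and 3, with adjusted p of 0.0535 to 0.0752. For Plk1 they were LA sham 1 and 3 and LV sham 1 and 3, with adjusted p of 0.0556 to 0.111. Plk1 and Cdk4 were also lost after further quantile normalization (adjusted p 0.0503 and 0.0609) and after cyclic loess (0.0740 and 0.0563). With a replicate block within each operation the adjusted p of Plk1 was 0.0506.

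Among the CDK inhibitors, Cdkn1c and Cdkn1a differed most between the chambers, in opposite directions. Cdkn1c had 6.61, 6.49 and 6.47 in LA sham and 5.17, 4.94 and 5.29 in LV sham, higher in LA by 1.39 ± 0.15 or 2.62-fold (limma, adjusted p 1.51e-05). Cdkn1b had 9.34, 9.35 and 9.41 in LA sham and 8.87, 8.82 and 8.90 in LV sham, higher in LA by 0.50 ± 0.08 (adjusted p 0.000196). Neither gene overlapped between the sham groups, as for 3684 of 10606 genes tested in that direction. A second Cdkn1b probe set differed by 0.28 ± 0.32 and did not pass (adjusted p 0.502), and the mean of both gave 0.39 (adjusted p 0.0952).

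Cdkn1a had 6.56, 6.67 and 6.56 in LA sham and 7.91, 8.02 and 8.02 in LV sham, a difference of -1.39 ± 0.11 or 2.62-fold lower in LA (limma, adjusted p 1.56e-06). Its second probe set gave -1.42 ± 0.15 (adjusted p 1.22e-05). Gadd45a, another p53 target that halts growth, was lower in LA by a difference of -1.74 ± 0.07 (adjusted p 2.35e-09). The 17 p53 and growth arrest genes tested did not go one way, with 4 higher and 4 lower in LA, Phlda3 being higher by 0.40 ± 0.09 (adjusted p 0.00378). The probe sets of Cdkn2c disagreed, with 0.16 ± 0.13 on the 1 of highest mean (adjusted p 0.323) and -0.36 ± 0.06 on 1378711_x_at (adjusted p 0.000426), whose suffix marks probes that can match other sequences.

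**Figure D5:**
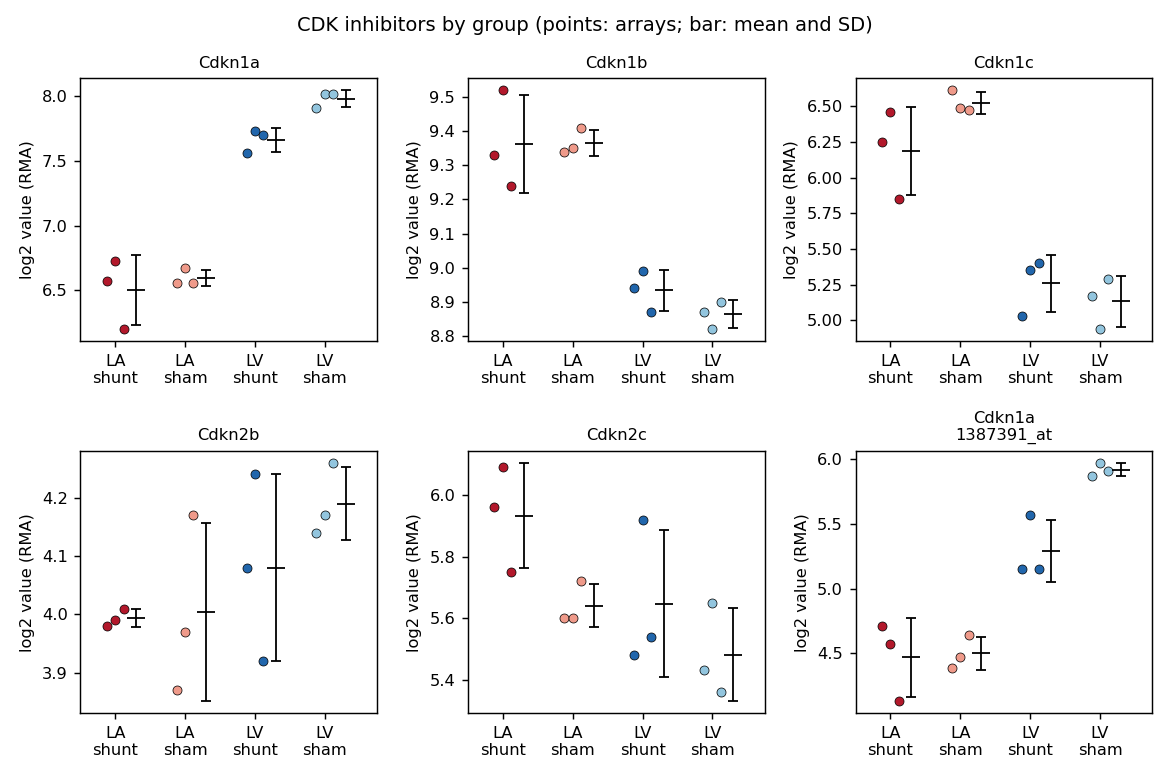
Log2 values of the 5 CDK inhibitors and of the second Cdkn1a probe set by group (points are arrays, bars the mean and SD of 3 arrays, and each panel has its own axis). Cdkn1a is at 6.20 to 6.73 on the LA arrays and 7.56 to 8.02 on the LV arrays, while Cdkn1c is at 5.85 to 6.61 in LA and 4.94 to 5.40 in LV.

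Markers of other cell types also differed between the chambers in sham hearts. Of 7 fibroblast markers, 6 were higher in LA, with centred list means of 0.32 to 0.38 in LA sham and -0.36 to -0.29 in LV sham. Of 4 mesothelial markers, 3 were higher and 1 lower, with means of 1.09 to 1.42 in LA sham and -1.33 to -1.26 in LV sham. Of 6 endothelial markers, 4 were lower in LA, with means of -0.20 to -0.12 in LA sham and 0.11 to 0.17 in LV sham, and of 5 smooth muscle and pericyte markers tested 3 were lower, with means of -0.22 to -0.11 in LA sham and 0.06 to 0.19 in LV sham. Of 7 macrophage markers tested, 1 was higher and 2 were lower, and of 4 neutrophil and mast cell markers tested 2 were lower. The part of cell composition in the chamber differences of the members was not tested.

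After shunt, 11 of 34 members passed between LA and LV, 6 higher and 5 lower in LA, where 45.6% of all genes tested passed (24.8% higher, 20.9% lower). Cdkn1c was higher in LA by 0.93 ± 0.15, with 6.25, 6.46 and 5.85 in LA shunt and 5.03, 5.35 and 5.40 in LV shunt (limma, adjusted p 0.000370). Cdkn1a was lower by a difference of -1.16 ± 0.11, with 6.57, 6.73 and 6.20 in LA shunt and 7.56, 7.73 and 7.70 in LV shunt (adjusted p 7.12e-06). Both chamber differences were numerically smaller than in sham hearts. The change in them is the difference of the shunt effects, -0.46 ± 0.21 for Cdkn1c (adjusted p 0.755) and 0.22 ± 0.16 for Cdkn1a (adjusted p 0.902), and neither passed.

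The other calls after shunt were Mcm4 at 0.85 ± 0.17, Rrm1 at 0.63 ± 0.11, Cdk4 at 0.26 ± 0.06, Cdkn1b at 0.43 ± 0.08 (adjusted p 0.0537 when its probe sets were averaged) and Ccnd3 at 0.23 ± 0.05, all higher in LA, and Mcm5 at -0.50 ± 0.10, Tk1 at -0.43 ± 0.09 (-0.06 on its second probe set, and adjusted p 0.0533 on their average), Plk1 at -0.32 ± 0.11 and Mcm3 at -0.24 ± 0.09, all lower in LA. Mcm3 had the highest adjusted p of these (limma, 0.0444), and its call was lost without any of 8 arrays (LA shunt 2 and 3, LA sham 1 and 3, LV shunt 1 and 2, LV sham 2 and 3), with adjusted p of 0.0514 to 0.131. It was also lost under 7 of 10 other alternatives, with adjusted p of 0.0510 to 0.125. Plk1 was lost without LA shunt 2 or 3 or LV shunt 2 or 3, with adjusted p of 0.0698 to 0.118, and after further quantile normalization or cyclic loess (0.0613 and 0.0806). With a replicate block its adjusted p was 0.0516 over all groups and 0.0638 within each operation.

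Leaving out LA shunt array 1 raised the count after shunt to 17 of 34 members, 6 higher and 11 lower in LA, where 41.1% of all genes tested passed in the same fit (22.5% higher, 18.6% lower). The calls gained included Cks2 with a difference of -0.77 (limma, adjusted p 0.000659), Cdk1 with -0.68 (adjusted p 0.00377) and Top2a with -0.34 (adjusted p 0.0299). With all arrays these differences were -0.38, -0.36 and -0.15 and did not pass. LA shunt array 1 was the highest of its group for 19 of 19 mitosis genes, mitotic cyclins and Cdk1. Leaving it out therefore lowers their LA shunt means by construction, and the calls gained are no independent support for a chamber difference. Without the same array the median shunt minus sham difference of the proliferation genes in LA was -0.20, against -0.07 with it, and 0 members passed that comparison.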

How the data were processed

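RNA of the left atrial appendage and left ventricular free wall was hybridised as biotinylated cRNA to 1-colour Affymetrix arrays, 3 per group. The deposited values are log2 intensities per probe set that the authors made with RMA, per the submitters' processing notes. The version of RMA and the arrays that were normalized together are not given in the sources used here. No further normalization was applied.

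A gene was represented by its probe set of highest mean over the 12 arrays. Probe sets with a mean under the 40th percentile (4.01) were left out, which left 18625 probe sets and 10606 genes. The mean of each group was fitted over all 12 arrays with limma 3.58.1 in R 4.3.3 (lmFit, eBayes), and p-values were adjusted by Benjamini and Hochberg over all probe sets tested, with a threshold of 0.05. The fit had 8 residual degrees of freedom and 3.68 prior ones. It was tested on simulated data. The comparisons were shunt minus sham in each chamber, the difference of these effects, and LA minus LV after sham and after shunt, so the comparisons share arrays. Differences are log2 with the standard error, and intervals are at 95%.

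Named genes are the members and, from further pathway lists, up to 4 genes of lowest p past the threshold. Members past the threshold, the 2 of lowest p in each role and 8 set members are given with values; Aurkb was added after its values were seen, and its fits without the filter that leave out 1 array or add the hexokinase covariate were chosen after seeing the data. Pcna, Mcm6, Mcm7, Aurka, Birc5 and Cdkn2b were named beyond this rule. The members and all lists were chosen with earlier results of these data known. Alternatives were other filters, normalizations, priors and array weights, the groups compared alone, the replicate number as a block, the hexokinase covariate, averaging a gene's probe sets, and 1 array left out at a time.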

Additional observations from a re-analysis of the deposited data

How the results depend on the processing

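Of 145 values of members over the 5 comparisons, 30 were called, 20 of these kept their call in every alternative run and 10 lost it in at least 1. Of the others, 12 were called in at least 1 alternative, and 0 called values changed sign. The count of members called after shunt in LA was 0 with 12 of 12 arrays left out in turn and 1 without the filter (Aurkb, lower), 1 with the hexokinase covariate (Ccnd1, higher) and 1 when a gene's probe sets were averaged (Aurkb, lower). In LV and for the difference of the shunt effects it was 0 throughout. Between chambers in sham hearts the count was 12, where 50.2% of all genes tested passed in the main fit, and ranged from 8 to 17. After shunt it was 11, where 45.6% of all genes passed in the main fit. It was 7 with the filter at the 60th percentile, where 16 members were tested. With 1 array left out it was 9 to 17, the highest without LA shunt array 1, where 41.1% of all genes passed. Shares of all genes in the other alternatives are not given here, so a change in these counts is not a result about the members.

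With 1 array left out, the median shunt effect in LA was -0.20 to -0.02 for the proliferation genes and -0.11 to 0.04 for the cyclins and CDKs, the lowest of each without LA shunt array 1. The median difference of the shunt effects was -0.21 to -0.03 for the proliferation genes and -0.08 to 0.03 for the cyclins and CDKs, the highest without LA shunt array 3. The median LA minus LV difference after shunt was -0.27 to -0.09 for the proliferation genes and -0.17 (without LV shunt array 3) to 0.05 (without LA shunt array 3) for the cyclins and CDKs. When a gene's probe sets were averaged, the median LA minus LV difference of the inhibitors was -0.10 in sham hearts, against 0.16, and 0.01 after shunt, against 0.29. The cause of these changes was not tested.

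With the replicate block over all groups, 12 members were called between the chambers in sham hearts and 12 after shunt. With the replicate block within each operation these counts were 13 and 11. Shares of all genes called in the block fits are not given here. In the shunt comparisons 0 members were called with a block. Past Plk1 and the Ccnd1 probe set given above, Mcm3 was not called after shunt with the block within each operation (adjusted p 0.0510), and Tyms was called after shunt with either block (0.0354 and 0.0447). Same-numbered arrays deviated together (r above 0.1) in 4 of 18 pairs, all among the 6 pairs of LA with LV of the same operation, where the other r were -0.24 and 0.07. In all pairs across operations r was -0.10 to 0.06. The sample titles do not say whether same-numbered LA and LV arrays share hearts. The main fit did not pair the arrays, so its chamber p-values take LA and LV arrays as independent. Of the 15 mitosis genes, 6 lie below the filter, near the lower end of the arrays' values, where background limits what can be measured.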
